A study of Mus musculus with 19 samples.

Results

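The miR-17-92 and miR-106b-25 clusters are 9 microRNA (miRNA) hairpins of the mouse genome that lie on 2 primary transcripts. Mir17, Mir18, Mir19a, Mir20a, Mir19b-1 and Mir92-1 form miR-17-92, and Mir25, Mir93 and Mir106b form miR-106b-25. Their reads were taken from 19 small RNA libraries of sperm as every read of 20 to 24 nt that matched a GENCODE hairpin in the sense direction with at most 1 mismatch, with a read that fitted several hairpins equally well divided equally among them. The 9 hairpins were listed by their place in the genome and not by a measured value. All 9 held such reads, among 1529 of the 2198 hairpins searched. The level of a hairpin is given in RPM, the reads of the hairpin per 1000000 miRNA reads, where the miRNA reads are the 20 to 24 nt reads on 453 hairpins whose reads were mostly of that length. The main mature forms of the 9 hairpins measure 21 to 23 nt and each read was counted whole, so levels were compared between hairpins without a correction for length.

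Male C57BL/6J wild-type mice, 8 weeks old, received dicyclohexyl phthalate (DCHP), a plasticizer, at 10 mg/kg/day, or corn oil as the vehicle, by gavage for 4 weeks. Sperm came from the cauda epididymis after a somatic cell lysis step, and all groups share strain, age, gavage and sperm preparation. RNA of 15 to 50 nt was sequenced either by a standard protocol (traditional RNA-seq, 5 control and 5 DCHP libraries) or by PANDORA-seq (4 control and 5 DCHP libraries), in which T4PNK mends RNA ends and AlkB removes methyl groups that block reverse transcription. The sample labels name DCHP gavage as the treatment of every library, and the control status comes from the library titles. The study describes its sperm libraries as biological replicates of mice, and the p-values measure the spread between these libraries. Per the study, sperm RNA of control and exposed sires went through both protocols, but the labels do not say which libraries share an animal. The main tests treated the libraries as unpaired.

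The libraries held 21588335 to 56506344 reads, but only 5816 to 46900 of them were miRNA reads in PANDORA-seq (0.0229 to 0.106% of the reads), against 959446 to 8146852 in traditional RNA-seq (3.96 to 15.6%). A count of 3 reads therefore stands for 63.97 to 516 RPM in a PANDORA-seq library and for 0.368 to 3.13 RPM in a traditional library. Traditional control library 2 stood apart, with the most miRNA reads and with the lowest summed level of 3 germ cell miRNA genes (767 RPM, against 1995 to 6542 RPM in the other traditional libraries). Germ cell markers were present in every library, but so were miRNAs of other cells that the preparation could hold: 5 genes of epididymal epithelium summed to 6024 to 47539 RPM and 2 of smooth muscle to 10660 to 88805 RPM over all libraries. Less RNA per sperm and fewer sperm cannot be told apart in such bulk libraries.

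Drosha cuts a miRNA hairpin out of its primary transcript, Dicer removes the loop, and an Argonaute protein keeps either the 5p or the 3p arm and discards the other. Bases 2 to 8 of the kept strand, the seed, pair with target mRNAs. Hairpins of a cluster begin on the same primary transcript, yet processing and stability can leave their mature forms at unlike levels, and reads with shifted ends (isomiRs) show where Drosha, Dicer and trimming or tailing enzymes acted. miR-17-92 is an oncogenic cluster activated by MYC, and both clusters are known from proliferating cells and from spermatogonia.

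On GRCm38, miR-17-92 spans 836 bp at chr14:115043671-115044506 on the plus strand, and all 6 hairpins fall in an exon of the single annotated transcript of Mir17hg, its non-coding host gene. miR-106b-25 spans 498 bp at chr5:138165321-138165818 on the minus strand, within Mcm7, which encodes a subunit of the replicative helicase. Mir106b lies in an intron of 2 Mcm7 transcripts, and Mir25 and Mir93 lie in an intron of 2 and overlap an exon of 1 other transcript. All 9 hairpins matched RefSeq entries, with 17 mature forms (build GRCm38.p6). The main arms, and the 5p arm of Mir106b, are shown by seed, with the seed in capitals, since the levels and the read ends described later follow these strands. The first group shares the seed AAAGUGC.

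mmu-miR-17-5p: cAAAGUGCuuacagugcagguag
mmu-miR-20a-5p: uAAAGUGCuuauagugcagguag
mmu-miR-93-5p: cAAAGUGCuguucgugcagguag
mmu-miR-106b-5p: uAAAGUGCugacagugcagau

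The product of Mir18 has 1 other base within these positions, and its seed is its own among the 9 hairpins.

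mmu-miR-18a-5p: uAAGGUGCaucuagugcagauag

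The products of Mir19a and Mir19b-1 share the seed GUGCAAA.

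mmu-miR-19a-3p: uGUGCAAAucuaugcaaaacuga
mmu-miR-19b-3p: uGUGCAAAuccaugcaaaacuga

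The products of Mir92-1 and Mir25, from different chromosomes, share the seed AUUGCAC.

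mmu-miR-92a-3p: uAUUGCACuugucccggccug
mmu-miR-25-3p: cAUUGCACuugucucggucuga

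The 3p arm of Mir106b, which held most of its reads in sperm, has a seed that none of the others carries.

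mmu-miR-106b-3p: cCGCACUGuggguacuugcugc

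The 9 hairpins together made up 0.355 to 1.09% of the miRNA reads in the traditional libraries and 1.01 to 2.42% in the PANDORA-seq libraries. Within each cluster the levels were far from equal, and the last hairpin of miR-17-92 and the last of miR-106b-25 held most of the reads. By seed, AUUGCAC took 83.8% of the members' reads in traditional RNA-seq and 88.1% in PANDORA-seq. The AAAGUGC seed took 5.67% and 2.44%, the CGCACUG seed of miR-106b-3p 4.61% and 3.73%, and the GUGCAAA seed 0.660% and 0.0888%. The order of AAAGUGC and CGCACUG in traditional RNA-seq rested on traditional control library 2, without which they took 3.14% and 4.88%, and GUGCAAA took 0.413%. A further 5.12% and 5.62% carried none of the RefSeq seeds of these hairpins at bases 2 to 8, as reads with a shifted start or with a mismatch there do.

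Mir25, whose 3p strand is the most abundant product of the miR-106b-25 transcript, reached 4677, 1748, 4983, 5845 and 7696 RPM in the 5 traditional control libraries and 6370, 5319, 6292, 5859 and 5026 RPM in the 5 traditional DCHP libraries. In PANDORA-seq it reached 10488, 5762, 9890 and 8246 RPM in control and 12242, 7013, 17266, 7167 and 5906 RPM in DCHP. Traditional control library 2 was the lowest of all, and the DCHP values fell inside the range of the controls in traditional RNA-seq. The mean was 5381 ± 1549 RPM (SD, n = 10) in traditional RNA-seq and 9331 ± 3688 RPM (SD, n = 9) in PANDORA-seq, and Mir25 ranked 24 and 19 among the 453 hairpins.

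Mir92-1, the last hairpin of miR-17-92, was measured at 1487, 880, 1652, 2077 and 2459 RPM in traditional control and 1967, 2603, 1983, 1467 and 1219 RPM in traditional DCHP. Its PANDORA-seq levels were 12294, 4259, 3618 and 6320 RPM in control and 6721, 6085, 5489, 3460 and 2548 RPM in DCHP. All PANDORA-seq controls lay above all traditional controls, whereas the lowest PANDORA-seq DCHP library lay just under the highest traditional one. The means were 1779 ± 540 RPM (SD, n = 10) in traditional RNA-seq and 5644 ± 2882 RPM (SD, n = 9) in PANDORA-seq, with ranks of 46 and 26.

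Mir106b lies at the start of the miR-106b-25 transcript and stood at 320, 178, 392, 355 and 546 RPM in traditional control and at 490, 324, 527, 400 and 600 RPM in traditional DCHP. In PANDORA-seq the values were 688, 167, 128 and 148 RPM in control, from 4, 2, 3 and 3 reads, and 640, 289, 1032, 741 and 1130 RPM in DCHP, from 8, 4, 11, 12 and 53 reads. The PANDORA-seq groups overlapped through control library 1, and 3 of its 4 controls lay below every DCHP library. Mir93, between Mir106b and Mir25, ranged from 106 to 277 RPM in traditional control and from 101 to 212 RPM in traditional DCHP, with a mean of 178 ± 54.0 RPM (SD, n = 10). In PANDORA-seq it ranged from 0 to 516 RPM in control and from 145 to 320 RPM in DCHP, so that its groups overlapped in both methods.

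The remaining hairpins of miR-17-92 were low. Mir20a averaged 91.6 ± 73.2 RPM (SD, n = 10) in traditional RNA-seq and ranged from 36.2 to 275 RPM. Mir17 averaged 33.6 ± 31.3 RPM, Mir19a 23.04 ± 12.9 RPM, Mir19b-1 18.6 ± 11.99 RPM and Mir18 4.08 ± 3.10 RPM over the same 10 libraries. The highest values of Mir17 (114 RPM), Mir20a (275 RPM), Mir19b-1 (46.2 RPM) and Mir93 (277 RPM) all came from traditional control library 2. In PANDORA-seq, Mir20a rested on 18 reads over 9 libraries, Mir17 on 4, Mir19a on 1 and Mir19b-1 on 1. Mir18 held 0 reads there, and its traditional level would have given 0.659 reads over the 9 libraries, so that it was not detectable at this depth. At their traditional levels Mir17, Mir19a and Mir19b-1 would have given 5.42, 3.72 and 2.999 reads.

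**Figure D1:**
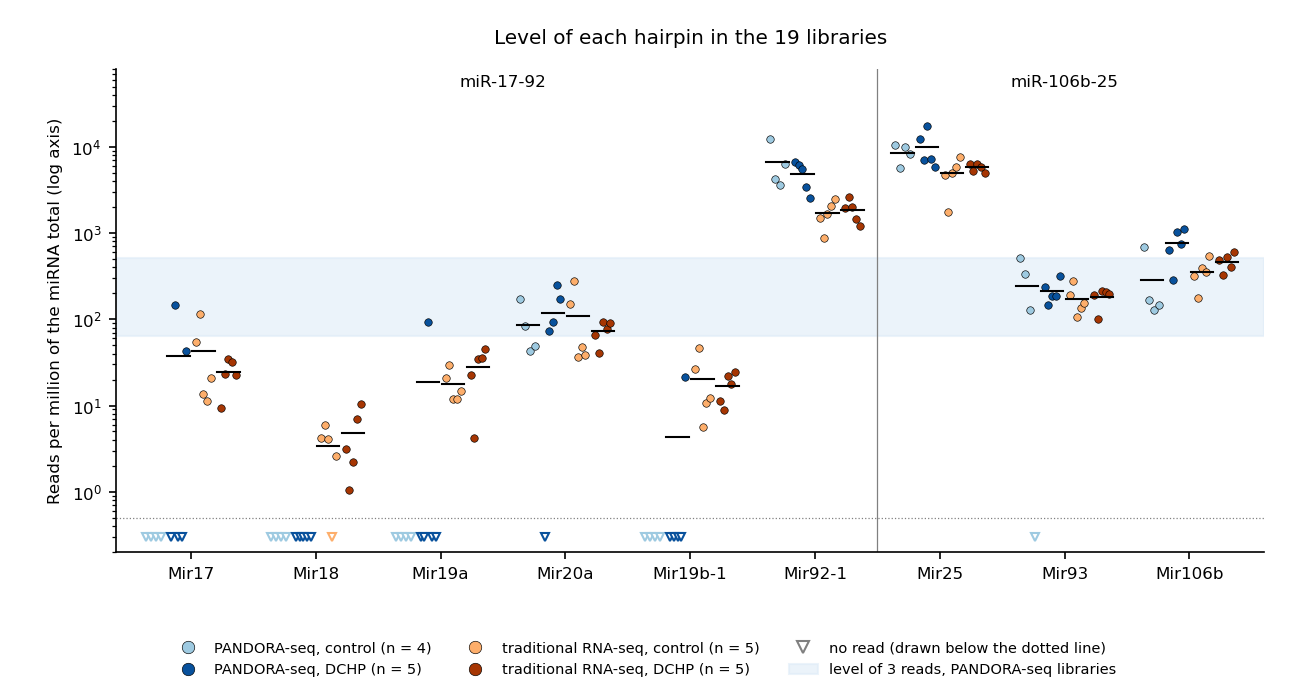
Level of each of the 9 hairpins in RPM (log axis) in every library, by method and exposure; points are libraries, bars are group means, triangles below the dotted line are libraries with no read, and the band spans the level of 3 reads in the PANDORA-seq libraries. Mir25 and Mir92-1 lie above that band in every library, and Mir17, Mir18, Mir19a and Mir19b-1 hold no read in most PANDORA-seq libraries.

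In the order of levels, neighbours overlapped in range with 1 exception. Mir92-1 exceeded Mir106b in 10 of 10 traditional libraries, with a median ratio of 4.36, and in 9 of 9 PANDORA-seq libraries, with a median ratio of 17.9, and the ranges did not overlap. Mir25 exceeded Mir92-1 in 10 of 10 traditional libraries and in 8 of 9 PANDORA-seq libraries, with median ratios of 3.14 and 1.82. Within miR-17-92, Mir92-1 stood at a median of 25.6 times Mir20a, the next hairpin, in traditional RNA-seq. Within miR-106b-25, Mir25 stood at a median of 13.6 times Mir106b in traditional RNA-seq and 19.1 times in PANDORA-seq. These orders describe read counts, and ligation and amplification differ between sequences.

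Part of the level of Mir92-1 cannot be assigned to a chromosome. The mature miR-92a is the same from Mir92-1 and from Mir92-2, its copy in the related cluster on chromosome X (875 bp, at chrX:52741693-52742567). Of the miR-92a reads in traditional RNA-seq, 79.5% fitted both copies, 19.6% fitted Mir92-1 alone and 0.364% fitted Mir92-2 alone, and in PANDORA-seq the shares were 74.7, 24.8 and 0.338%. The minor arms differ between the copies, and 10 traditional reads carried that of Mir92-1 and 0 that of Mir92-2. The hairpins of the X cluster with their own mature sequence were close to 0 in traditional RNA-seq, with Mir106a at 0.833 RPM, Mir18b at 0.134 RPM, Mir20b at 1.63 RPM and Mir363 at 1.24 RPM on average, and held 0 reads in PANDORA-seq. Mir19b-1 shares 99.9% of its traditional reads with Mir19b-2, so its level was split between the copies in the same way. Set against all miR-92a reads, miR-25 stood at a ratio of 1.22 to 2.49 in the traditional libraries (mean 1.82) and of 0.504 to 1.83 in the PANDORA-seq libraries (mean 1.15).

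The first comparison asked whether the levels differed with DCHP exposure. In traditional RNA-seq 0 of the 9 hairpins passed an adjusted p of 0.1 in edgeR's quasi-likelihood test, where 0 of 491 hairpins passed (0.0%). Without adjustment, 38 of the 491 had a p under 0.05, and DESeq2 called 2 hairpins, neither of them a member. Mir25 differed by a log2 fold change of 0.21 (95% interval −0.53 to 0.95), Mir92-1 by 0.11, Mir93 by 0.08 and Mir106b by 0.39, where the median over all hairpins tested was 0.17. Mir19a had 0.67. The values of Mir17, Mir20a and Mir19b-1 rested on traditional control library 2, with −0.83 (−2.04 to 0.38), −0.58 and −0.27 in all libraries and −0.02, 0.11 and 0.34 without it. The sign of the small values depended on the scaling. With TMM factors the median was −0.18 over all hairpins and −0.17 over the members, against 0.17 and 0.11 per miRNA read. The summed level of the epididymal markers ranged from 6024 to 21305 RPM in traditional control and from 17824 to 47539 RPM in traditional DCHP, and its part in these log2 fold changes was not tested.

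In PANDORA-seq only Mir25, Mir92-1 and Mir106b had enough reads to be tested, and 0 of the 3 passed in edgeR's test, as did 0 of 247 hairpins (0.0%). There, 15 of the 247 had an unadjusted p under 0.05 and DESeq2 called 0. Mir25 differed by 0.20 (95% interval −0.72 to 1.13) and Mir92-1 by −0.44 (−1.38 to 0.51) on the log2 scale. Mir106b showed the largest value of the 3, a log2 fold change of 1.74 ± 0.70 (SE; 95% interval 0.34 to 3.14), with an adjusted p of 0.735. Leaving out each library in turn moved it between 1.45 and 2.36. Mir106b held only 2 to 4 reads in each PANDORA-seq control library. It reached the minimum mean of 5 reads through the DCHP libraries, where it was higher, so the interval is a description. The epididymal markers summed to 9801 to 12544 RPM in PANDORA-seq control and 9832 to 39481 RPM in PANDORA-seq DCHP, and their part in the value of Mir106b was not tested. The difference between the exposure effects of the 2 methods was tested as an interaction, and 0 of the 3 hairpins passed, as did 0 of 236 hairpins (0.0%), 4 of them at an unadjusted p under 0.05. For Mir106b it was 1.41 (95% interval −0.04 to 2.86; adjusted p = 0.996 in edgeR), for Mir92-1 −0.55 and for Mir25 −0.01. The value of Mir106b again rests on those few control reads. With same-numbered libraries of the methods as a replicate block, an alternative chosen after seeing the data, 0 of the 3 passed as well, at 1.197 for Mir106b (adjusted p = 0.728 in edgeR), −0.65 for Mir92-1 and −0.42 for Mir25.

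The second comparison set PANDORA-seq against traditional RNA-seq within each exposure, as a share of the miRNA reads. Mir92-1 was higher in PANDORA-seq, with a mean of 6623 ± 3953 RPM (SD, n = 4) against 1711 ± 599 RPM (SD, n = 5) in control and 4861 ± 1780 RPM against 1848 ± 535 RPM (SD, n = 5 each) in DCHP. The log2 fold change was 1.94 ± 0.48 (SE) in control, with an adjusted p of 0.00244 in edgeR, and 1.39 ± 0.37 in DCHP, with an adjusted p of 0.00256. It was the only 1 of the 9 hairpins called in either exposure, and such a call was common, since 43.2% of 449 hairpins were higher in control and 40.2% of 435 in DCHP. The median over all hairpins tested was 1.09 and 0.90. Hairpins outside the 453 that define the miRNA reads were also tested, so these rates and medians are not those of miRNAs alone. In PANDORA-seq control library 1, 33684 reads of 20 to 24 nt lay on hairpins and 5816 were miRNA reads. In traditional control library 1 these were 1464690 and 1434828. Without each library in turn Mir92-1 kept its call, at 1.47 to 2.15 in control and 1.24 to 1.56 in DCHP, and with reads that fit Mir92-1 alone the values were 2.496 and 1.54. Such reads include the form 1 base longer described later. They made up 27.8% of the miR-92a reads in PANDORA-seq control and 19.9% in traditional control, and 22.4 and 19.3% in DCHP. Those values therefore do not measure the level alone.

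Mir25 was at 8596 ± 2114 RPM (SD, n = 4) against 4990 ± 2160 RPM (SD, n = 5) in control, a log2 fold change of 0.78 ± 0.45 (SE; adjusted p = 0.198 in edgeR). With same-numbered libraries of the 2 methods as a replicate block it was 1.09, with an adjusted p of 0.0180, and passed, where 199 of 446 hairpins were called higher. In DCHP it was at 9919 ± 4783 RPM against 5773 ± 591 RPM (SD, n = 5 each), with 0.77 ± 0.37 (SE; adjusted p = 0.105). Mir106b had −0.66 in control and 0.74 in DCHP, Mir93 0.16 and 0.32, and Mir20a −0.68 and 0.83, none of which passed. Mir17, Mir18, Mir19a and Mir19b-1 held no read in any PANDORA-seq control library, so their fitted ratios in control are not given, and none passed. In DCHP, Mir17 had 0.70, Mir19a −1.46 and Mir19b-1 −0.84, from 4, 1 and 1 PANDORA-seq reads, and none passed. Mir18 held no read there either.

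The direction depended on what the reads were divided by. Per total reads of the library, Mir92-1 stood at a log2 fold change of −5.51 in control and −5.68 in DCHP, and all 9 hairpins were lower in PANDORA-seq. The split of all hairpins between higher and lower was 194 and 17 in control per miRNA read, and 10 and 328 per total read. It was 124 and 287 per read on any hairpin and 125 and 285 with TMM factors. In DCHP the same splits were 175 and 4, 12 and 327, 122 and 282, and 151 and 239. The values are therefore shares within the miRNA reads. Of 3 blood miRNAs, the summed level was 927 to 2956 RPM in PANDORA-seq and 394 to 780 RPM in traditional RNA-seq without overlap, but the defining marker Mir451a averaged 107 RPM in both and Mir144 was at 0 in PANDORA-seq. Most of the sum was Mir486, with 1780 RPM against 497 RPM, and the part of blood miRNAs in the levels of the members was not tested.

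**Figure D2:**
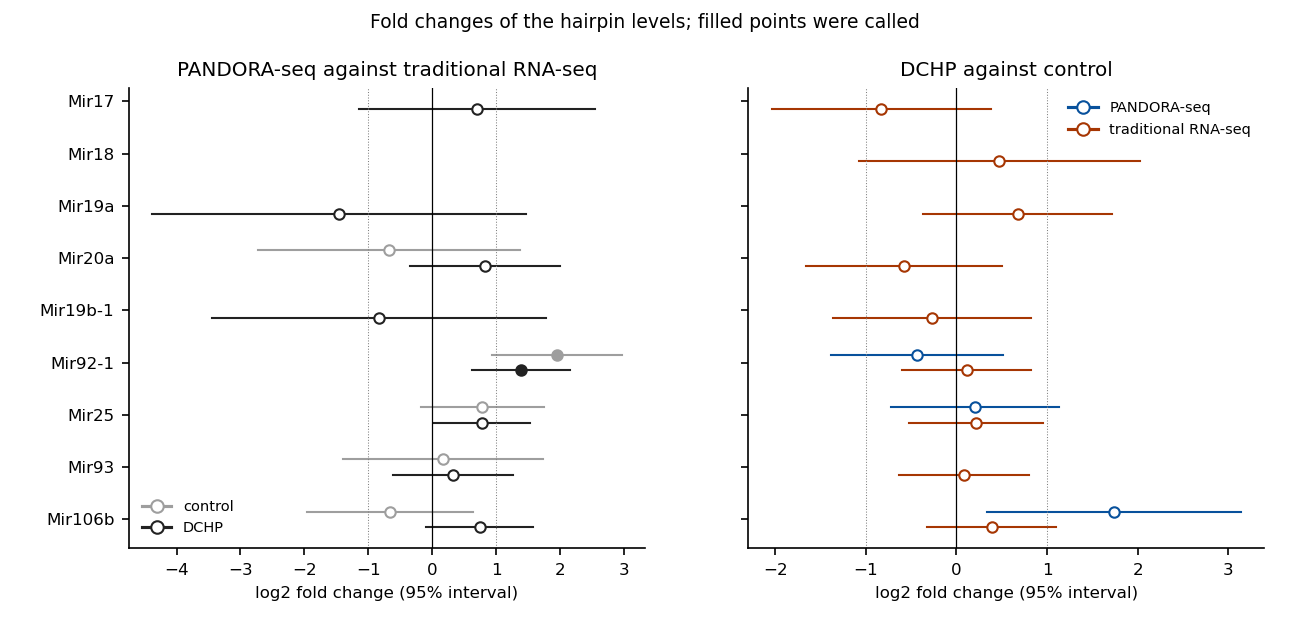
Log2 fold changes of the members in RPM with 95% intervals, at left PANDORA-seq against traditional RNA-seq in each exposure and at right DCHP against control in each method; filled points were called, dotted lines mark a fold of 2, and hairpins with too few reads or a group at 0 have no point. Every exposure interval shown spans 0 except that of Mir106b in PANDORA-seq, which rests on 2 to 4 reads per control library. Mir92-1 holds the only filled points.

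The arms were fixed for most members. In traditional RNA-seq, the 5p arm held 98.3% of the Mir17 reads, 99.7% of those of Mir20a and 99.5% of those of Mir93. Mir18 was mixed, with a 5p share of 81.3% over 134 reads, and of 79.6 to 100% in the 4 libraries with at least 10 reads. The 3p arm held nearly all reads of Mir25, with a 5p share of 0.0402%, and of Mir92-1, with 0.0257%. For Mir19a, 0 of 698 reads came from the 5p arm, which allows a share of up to 0.430%, and for Mir19b-1 0 of 662, which allows up to 0.453%. Among 262 hairpins with enough reads, 58.4% were mainly 5p and 25.6% had a 5p share between 10 and 90%.

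The arm of Mir106b differed in 1 library. Its 5p share was 22.8% in traditional control library 2 (332 of 1453 reads) and 0 to 2.397% in the other 9 traditional libraries. Over all 10 it was 4.25%, and 0.952% without that library. In PANDORA-seq 0 of 100 reads were of the 5p arm, which allows a share of up to 3%. The 5p strand of Mir106b carries the AAAGUGC seed of Mir17, Mir20a and Mir93, so most Mir106b reads in sperm did not carry the seed of that family.

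The share of the 5p arm did not pass an exact permutation test for any member with enough reads to be tested, which were 6 by exposure in traditional RNA-seq and 2, Mir25 and Mir92-1, in PANDORA-seq and in both comparisons of methods. The same members were tested for the read ends described later. By exposure, 0 of 124 hairpins passed in PANDORA-seq (0.0%) and 0 of 278 in traditional RNA-seq (0.0%), with 4 and 12 at an unadjusted p under 0.05. By method, 27.3% of 121 hairpins passed in control and 33.3% of 129 in DCHP.

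The reads themselves show a 21 nt product as the main form of both abundant members. The most frequent reads of Mir25 are given with an untemplated 3′ base in capitals.

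Mir25 read 1: cattgcacttgtctcggtctg
Mir25 read 2: cattgcacttgtctcggtctga
Mir25 read 3: cattgcacttgtctcggtctgaA

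Of all 15 to 45 nt reads on the hairpin, Mir25 read 1 took 63.8% in traditional RNA-seq and 55.9% in PANDORA-seq. Mir25 read 2 is the RefSeq form and took 8.62 and 9.58%, while Mir25 read 3, the same form with an added A, took 7.54 and 12.1%. Thus the form with its last base removed was several times as frequent as the RefSeq form in both methods. The most frequent reads of Mir92-1 follow.

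Mir92-1 read 1: tattgcacttgtcccggcctg
Mir92-1 read 2: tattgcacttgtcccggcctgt
Mir92-1 read 3: tattgcacttgtcccggcctgtA

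Mir92-1 read 1 fits both copies of miR-92a and took 69.1% in traditional RNA-seq and 65.7% in PANDORA-seq. Mir92-1 read 2 ends 1 base later, fits Mir92-1 alone and took 13.3 and 17.7%, and Mir92-1 read 3 took 2.55 and 2.11%. In the lengths and read ends described later, shared reads were divided between the copies. Forms that fit Mir92-1 alone weigh more there than in the shares of these single reads.

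Mir106b had the most reads below 20 nt. Of its 15 to 45 nt reads, 34.4% measured 18 or 19 nt in traditional RNA-seq and 30.6% in PANDORA-seq, against 0.113 to 8.75% for the other members in traditional RNA-seq, and 62.8% measured 20 to 24 nt. Its leading reads stepped down from the 3′ end.

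Mir106b read 1: ccgcactgtgggtacttgctg
Mir106b read 2: ccgcactgtgggtacttgct
Mir106b read 3: ccgcactgtgggtacttgc
Mir106b read 4: ccgcactgtgggtacttg

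These took 19.8, 23.6, 23.7 and 7.35% in traditional RNA-seq and 22.9, 17.8, 21.02 and 7.01% in PANDORA-seq, so no single 3′ end held a majority. A window of 20 to 24 nt counts the first pair of these forms and not the shorter pair, and the level of Mir106b is lower for it. In contrast, 70.6% of the Mir25 reads and 64.6% of the Mir92-1 reads (shared reads divided) were 21 nt long. Of the Mir20a reads 71.2% were 22 nt long.

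**Figure D3:**
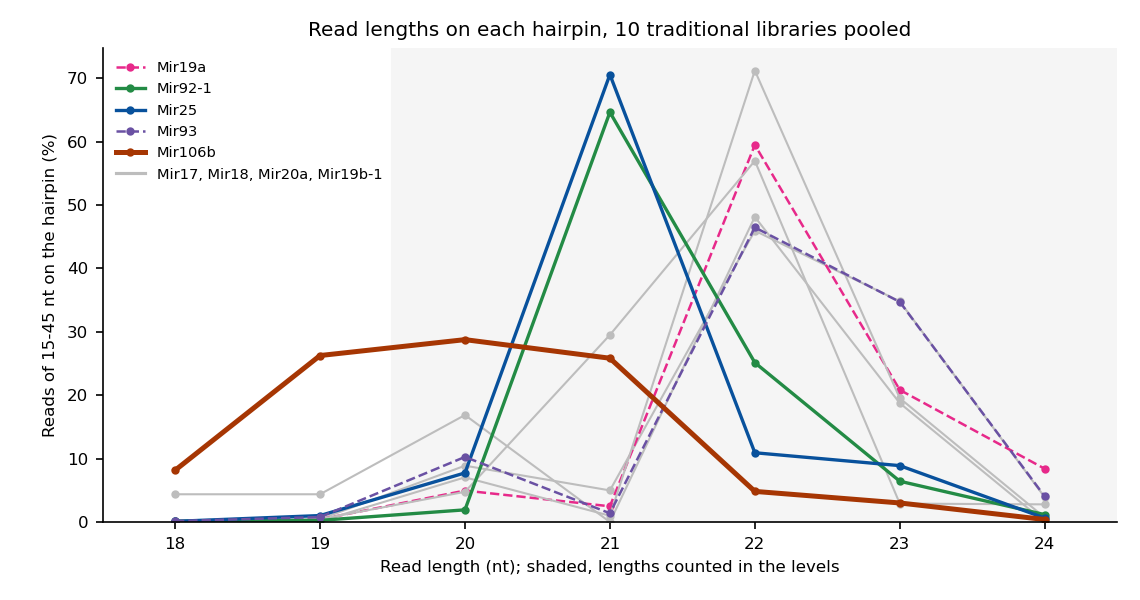
Percent of the 15 to 45 nt reads on each hairpin by read length (18 to 24 nt) in the 10 traditional libraries pooled; the shaded lengths are those counted in the levels. Mir25 and Mir92-1 peak at 21 nt, most of the others at 22 nt, and Mir106b spreads over 18 to 21 nt.

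Against the RefSeq ends, most members ended short among the exactly matching main-arm reads of 20 to 24 nt in traditional RNA-seq. The last base was missing in 80.7% of the Mir25 reads, 71.9% of the Mir20a reads, 87.2% of the Mir19a reads and 60.1% of the Mir19b-1 reads. Mir17 and Mir93 were split between the end 1 base short (48.2 and 48.3%) and the RefSeq end (39.1 and 38.7%), an order that rested on traditional control library 2. Without it the end 1 base short held 35.1% of the Mir17 reads and 42.7% of the Mir93 reads, and the RefSeq end 52.6 and 48.6%. Mir106b ended 2 bases short in 47.0% and 1 base short in 39.8% of these reads. Mir92-1 was the member that extended past its RefSeq end, with 69.5% of reads at that end and 26.7% 1 base beyond. Reads at that end fit both copies of miR-92a and were divided, so the longer form weighs more here than among all miR-92a reads. The members that share the AUUGCAC seed thus had their main 3′ end at the same read length of 21 nt.

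**Figure D4:**
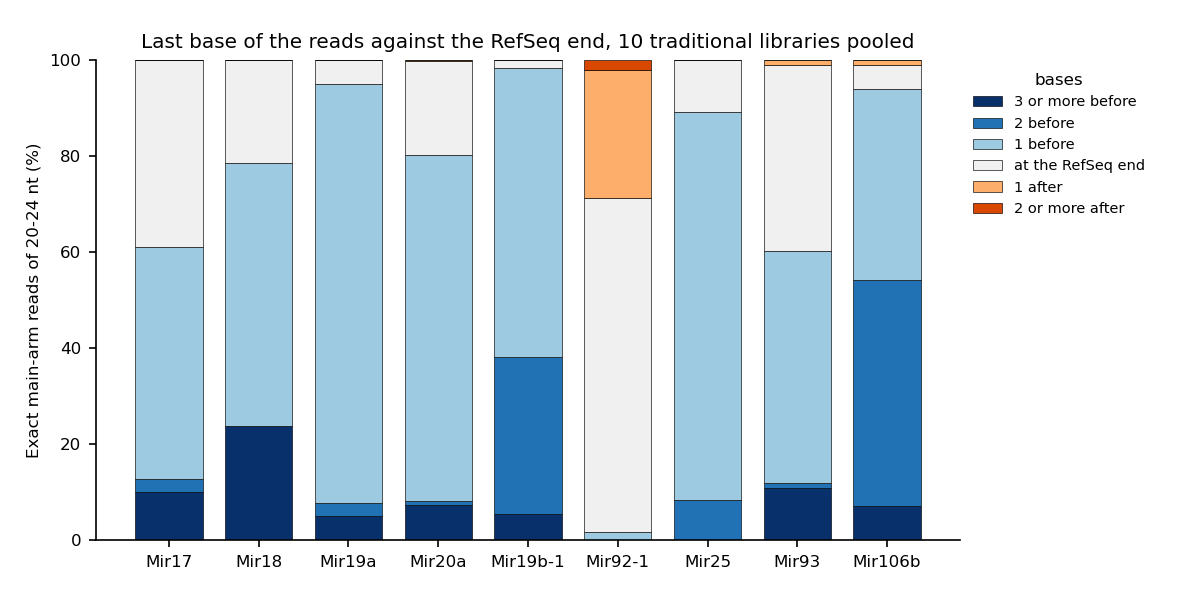
Percent of the exactly matching main-arm reads of 20 to 24 nt of each member by the distance of their last base from the RefSeq end, in the 10 traditional libraries pooled. Mir25 ends mostly 1 base before the RefSeq end, Mir92-1 at it or 1 base after, and Mir106b 1 or 2 bases before.

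The 5′ end, which sets the seed, was almost invariant for Mir25 and Mir92-1 in traditional RNA-seq, and less so in PANDORA-seq. The share of Mir25 reads at the main 5′ start was 99.6 to 99.8% in the traditional libraries, and 95.1, 97.1, 94.4 and 98.8% in PANDORA-seq control and 92.2, 100, 93.5, 98.3 and 99.6% in PANDORA-seq DCHP. For Mir92-1 it was 99.0 to 99.5% in the traditional libraries, and 96.5, 97.1, 94.1 and 97.7% in PANDORA-seq control and 98.8, 97.0, 97.4, 94.6 and 97.9% in PANDORA-seq DCHP. The ranges of the 2 methods did not overlap for Mir92-1, nor for Mir25 in control, while the DCHP ranges of Mir25 did. The PANDORA-seq reads that began elsewhere mostly began 1 base later, which shifts the seed by 1 base: 3.18% of the Mir25 reads did so in PANDORA-seq against 0.235% in traditional RNA-seq, and 2.24% against 0.561% of the Mir92-1 reads.

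In control, the means were 96.3% ± 2.01 (SD, n = 4) against 99.7% ± 0.0383 (SD, n = 5) for Mir25 and 96.3% ± 1.57 against 99.3% ± 0.201 for Mir92-1. Each gave an exact two-sided permutation p of 0.00794, the smallest this design allows, and an adjusted p of 0.0266. Both passed, where 6.14% of 114 hairpins were lower in PANDORA-seq and 39 of the 114 were higher. In DCHP, Mir92-1 passed at 97.2% ± 1.56 against 99.3% ± 0.216 (SD, n = 5 each; adjusted exact permutation p = 0.0183), where 4.17% of 120 hairpins were lower and 72 were higher. Mir25, at 96.7% ± 3.64 against 99.7% ± 0.0670, had an adjusted exact permutation p of 0.188. Thus these calls went against the direction of most hairpins called by this measure. Mir92-2, which shares most of its reads with Mir92-1, was not called in control (adjusted exact permutation p = 0.399) or DCHP (0.547). With same-numbered libraries paired, Mir92-1 was lower in 4 of 4 control pairs and 5 of 5 DCHP pairs, where the smallest exact permutation p is 0.125 and 0.0625, and the adjusted p was 0.312 and 0.132. With exact matches alone, only Mir92-1 in control passed.

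The main 5′ start did not differ with exposure beyond the threshold for any member tested. In PANDORA-seq 2 members could be tested and 0 passed, where 21.7% of 120 hairpins passed, and in traditional RNA-seq 0 of 6 members passed, as did 0 of 260 hairpins (0.0%), with 10 at an unadjusted exact permutation p under 0.05. Other members with shifted starts were Mir19a, of whose traditional reads 17.1% began 1 base earlier, and Mir106b, of whose traditional reads 7.61% began 2 bases earlier, as did 9 of 100 in PANDORA-seq.

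At the 3′ end, Mir92-1 and not Mir25 passed by method. In control, 59.6% ± 8.89 (SD, n = 4) of its exactly matching reads ended at the main end in the PANDORA-seq libraries and 70.5% ± 3.32 (SD, n = 5) in the traditional ones (exact permutation p = 0.0238, adjusted p = 0.0407), where 6.1% of 82 hairpins were lower. With same-numbered libraries as a replicate block the adjusted p was 0.175. In DCHP the shares were 66.1% ± 3.85 and 69.1% ± 3.30 (SD, n = 5 each; adjusted exact permutation p = 0.261), where 5.0% of 100 hairpins were lower. Mir25 had 77.9% against 81.1% in control and 76.3% against 79.9% in DCHP and did not pass. By exposure 0 of the members tested passed, as did 0 of 105 hairpins in PANDORA-seq (0.0%) and 0 of 209 in traditional RNA-seq (0.0%), with 1 and 15 at an unadjusted exact permutation p under 0.05.

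An untemplated last base, a mark of tailing by terminal nucleotidyltransferases, was frequent on Mir25. It was found on 9.31 to 11.6% of its reads in the traditional libraries, on 19.7, 10.1, 22.9 and 19.9% in PANDORA-seq control and on 19.6, 12.4, 11.96, 10.4 and 15.9% in PANDORA-seq DCHP. Of these bases in traditional RNA-seq 73.1% were A and 24.8% T. Of those on Mir92-1 90.4% were A, and those on Mir106b were split between A (50.5%) and T (42.2%). A last base was counted only where it mismatched the hairpin. The hairpin base after the most frequent read is A for Mir25 and T for Mir92-1. That base, if added to this read, would count as templated. The A and T shares of Mir25 and Mir92-1 therefore cannot be compared as a difference in tailing. In DCHP the share on Mir25 was 14.1% ± 3.69 by PANDORA-seq and 10.4% ± 0.919 by the traditional protocol (SD, n = 5 each; exact permutation p = 0.0317, adjusted p = 0.0952), where 1.67% of 120 hairpins were higher and 38 were lower. This call lies near the threshold: with a minimum of 30 reads the adjusted exact permutation p was 0.132, in the replicate block 0.153, and it was lost without any 1 of 8 libraries (PANDORA-seq DCHP 1, 2 and 5 and each traditional DCHP library). In control the shares were 18.2% ± 5.55 (SD, n = 4) and 11.1% ± 0.694 (SD, n = 5), with an adjusted exact permutation p of 0.188, where 5.26% of 114 hairpins were higher. Mir92-1 had 5.57% against 5.35% in control and 3.95% against 5.04% in DCHP.

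By exposure, 0 of the members tested passed for the untemplated base, as did 0 of 120 hairpins in PANDORA-seq (0.0%) and 0 of 260 in traditional RNA-seq (0.0%), with 4 and 12 at an unadjusted exact permutation p under 0.05. Mir106b was among the latter, with 8.31% of reads in traditional control (7.24 to 9.15%) and 6.73% in traditional DCHP (5.41 to 7.77%), which gave an exact permutation p of 0.0159 and an adjusted p of 0.9499.

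**Figure D5:**
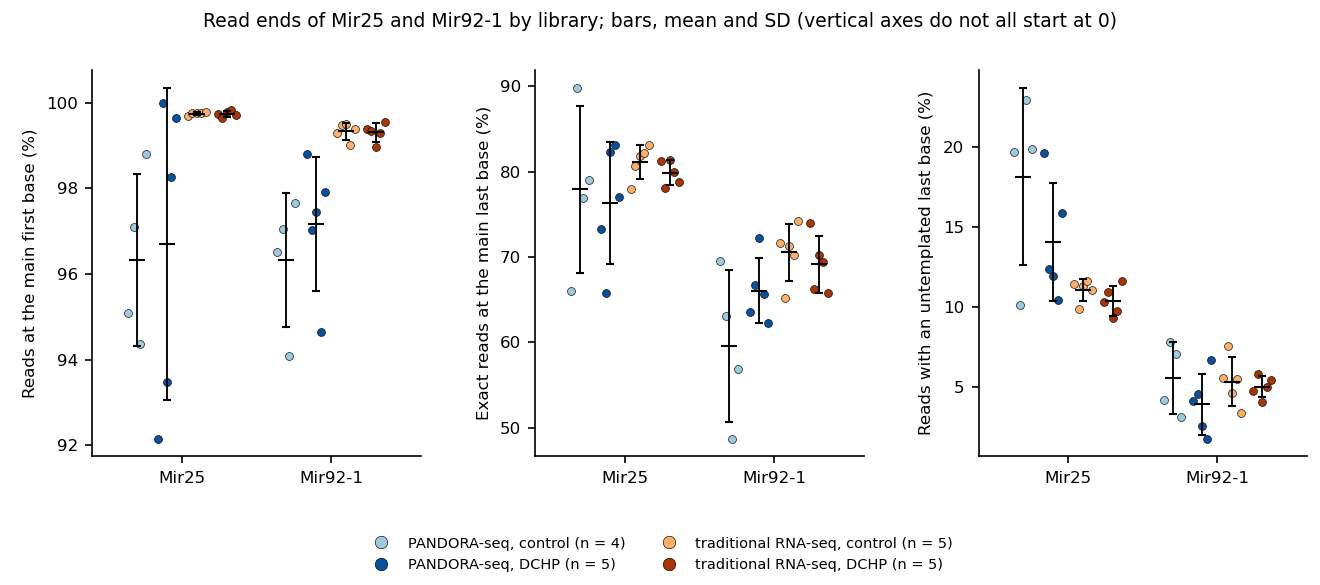
Percent of reads at the main first base, of exact reads at the main last base, and of reads with an untemplated last base for Mir25 and Mir92-1, 1 point per library with group mean and SD; the vertical axes do not start at 0. In the first panel the traditional libraries lie between 99.0 and 99.8% and the PANDORA-seq libraries spread from 92.2 to 100%.

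Across the 10 traditional libraries, hairpins of the same transcript did not all move together. On the log2(RPM + 1) scale, Mir20a and Mir19b-1 had a Pearson r of 0.943 (0.908 without traditional control library 2), while Mir92-1 and Mir20a, on the same transcript, had −0.810 (−0.624) and Mir92-1 and Mir18 −0.715 (−0.773). Between clusters, Mir19a and Mir93 had 0.871 (0.914) and Mir19b-1 and Mir93 0.888 (0.839). Mir92-1 and Mir25, which share a seed and not a transcript, had 0.803 (0.589). Within miR-106b-25, Mir25 and Mir106b had 0.842 (0.508), and Mir25 and Mir93 −0.444, which became 0.175 without traditional control library 2. Mir93 and Mir106b had −0.154, which became 0.497. These correlations are descriptions over libraries that share their total of miRNA reads, and the lowest hairpins rest on few reads.

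By the likeness of their levels over the same 10 libraries, among 151 other hairpins with enough reads, the hairpins most like the sum of miR-17-92 were Mir99b (r = 0.899, Spearman's rho = 0.903), Mir409 (0.80003 and 0.842) and Mir3107 (0.782 and 0.758). Those most like the sum of miR-106b-25 were Mir465c-1 and Mir465c-2 (0.972 and 0.939 each), near-identical copies of a family on chromosome X, and Mir470 (0.956 and 0.733). Without traditional control library 2, r was 0.901, 0.716 and 0.687 for the first 3 and 0.811, 0.811 and 0.764 for the others. Since Mir92-1 and Mir25 hold most of each sum, this likeness is mainly that of these hairpins.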

How the data were processed

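Sperm small RNA of 19 libraries was analysed from the files the authors deposited, which hold the counts of each distinct clean read, per the file headers; adapters had been removed by the authors, who processed the reads with SPORTS1.1 on mm10. Reads of 15 to 45 nt were matched to 2198 GENCODE hairpins (4 that hold a tRNA were left out) with at most 1 mismatch, and reads of 20 to 24 nt were counted. Columns of other samples numbered 0. The groups, from the titles, held 4, 5, 5 and 5 libraries, and none of the 36 pairs of libraries within a group agreed within sampling noise (smallest chi-square per degree of freedom 12.6).

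Levels were tested in edgeR 4.0.16 (R 4.3.3), with counts rounded to whole numbers, the miRNA reads as library size and hairpins with a mean of at least 5 reads. The hairpins tested were not limited to the 453 that define the miRNA reads. Calls needed a Benjamini-Hochberg adjusted p below 0.1 and, for levels other than the interaction, a fold above 2. Shares of reads were tested by exact two-sided permutation (scipy 1.17.1) where a library had at least 10 reads. Shares of single libraries and the limits from 0 reads cover counting error only. Same-numbered libraries of the 2 methods were paired in the replicate block only, and the labels do not name pairs. Every such pair's deviations from the group means correlated above 0.1 over 234 hairpins (0.176 to 0.672 in control, 0.218 to 0.518 in DCHP). The tests were checked on simulated data, where the comparison of methods in control recovered fewer of the changes than the other comparisons of levels. Alternatives were other library sizes, TMM, DESeq2 1.42.0, other matching and read minimums, a replicate block and each library left out. Members to name were given by the list of 9 hairpins and the genes most like them by correlation. The members and lists were chosen with earlier results of these data known.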

Additional observations from a re-analysis of the deposited data

Results flagged for a closer look

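Of 92 groups of 4 or 5 libraries tested for a library far from its group (Dixon's criterion, which flags about 1 in 20 by chance for normally distributed values), 17 held such a library, 4 of them traditional control library 2. Where the others of a group are tied at 0 or 100%, any differing value is flagged, so the count cannot be set against that rate. Traditional control library 2 had a Mir106b 5p share of 22.8% (0.210 to 2.397% in the others of its group), a Mir25 5p share of 0.0562% (0.0254 to 0.0336%), and for Mir20a a 5p share of 99.7% and a main 5′ start of 99.7%, with the others at 100%. Mir20a held 2236.5 reads there and 45 to 217 in the others. Traditional DCHP library 2 had Mir93 at 101 RPM (193 to 212 RPM in the others), a Mir93 5p share of 93.8% (99.8 to 100%), an untemplated base on 19.8% of Mir93 reads (4.05 to 6.30%) and on 10.3% of Mir20a reads (0 to 2.29%). Its Mir93 values rest on 97 reads.

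Traditional control library 3 had a Mir17 5p share of 84.8% (98.9 to 100%) and a Mir92-1 5p share of 0.0177% (0 in the others). Traditional control library 5 had an untemplated base on 70.6% of its Mir19a reads (0 to 12.5%), from 17 reads, and traditional control library 1 had 99.68% of Mir25 reads at the main 5′ start (99.75 to 99.77%). Traditional DCHP library 3 had an untemplated base on 5.26% of Mir17 reads (0 in the others), library 4 of that group 99.5% of Mir20a reads at the main 5′ start (100%), and library 5 a Mir20a 5p share of 98.9% (100%). In PANDORA-seq, the Mir25 5p share was 0.599% in control library 4 and 0.862% in DCHP library 4, with 0 in the others of each group.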

How the results depend on the processing

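The method comparison of levels depended on the library size: 9 members were called per total read, 9 per read on any hairpin and 9 with TMM factors, in control and in DCHP alike, and all were lower in PANDORA-seq. In that order, 328, 287 and 285 of all 449 hairpins tested were called lower in control and 327, 282 and 239 of 435 in DCHP. Mir17, Mir18, Mir19a and Mir19b-1 held no read in any PANDORA-seq control library. For the library sizes in the same order, the log2 fold changes in control were −5.51, −3.09 and −3.17 for Mir92-1 and −6.41, −4.06 and −4.15 for Mir25. In DCHP they were −5.97, −3.36 and −1.66 for Mir20a, −5.68, −3.16 and −1.40 for Mir92-1, −6.39, −3.81 and −2.08 for Mir25, and −6.08, −3.44 and −1.83 for Mir106b. With every hairpin that had a read, 2 members were called in control, Mir92-1 (higher) and Mir17 (lower), whose PANDORA-seq controls are at 0. Of all 1214 hairpins tested there, 532 were called higher and 20 lower. With the replicate block, which pairs same-numbered libraries of the methods, 2 were called in control, Mir92-1 and Mir25 (1.09), where 199 of 446 hairpins were called higher.

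For the shares by method, exact matches alone left 1 member called for the main 5′ start in control and 0 in DCHP. The replicate block left 0 and 0 for the 5′ start, 0 for the main 3′ end in control and 0 for the untemplated base in DCHP, where a minimum of 30 reads also left 0. Under the block the smallest p that 4 or 5 pairs allow limits the calls. With all libraries, 27.3% of 121 hairpins passed for the 5p share in control and 33.3% of 129 in DCHP. Leaving out each library gave 0 to 1 members called for the 5p share in control (1 without PANDORA-seq control library 4) and 0 to 1 in DCHP (1 without traditional DCHP library 2). It gave 1 to 2 for the main 5′ start in DCHP (2 without PANDORA-seq DCHP library 2 or 5), 1 to 2 for the main 3′ end in control (2 without PANDORA-seq control library 2) and 0 to 1 for the untemplated base in DCHP, where the member called without PANDORA-seq DCHP library 5 was Mir92-1 (lower in PANDORA-seq) in place of Mir25.

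By exposure, the log2 fold change of Mir20a in traditional RNA-seq was −0.81 to 0.11 with a library left out, positive only without traditional control library 2. Same-numbered control and DCHP libraries did not deviate together (r of −0.21 to 0.27 in PANDORA-seq and −0.32 to 0.21 in traditional RNA-seq), and the replicate block changed no member's call there. Of the counts of members called, 197 of 209 with a library left out and 68 of 83 under other settings stayed within 1.5 times. Most of these counts were 0 in the main setting, and a count that stayed at 0 was scored as unchanged. PANDORA-seq depth, at 5816 to 46900 miRNA reads, limits every statement on the 6 lower members.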
